A study of Mus musculus with 24 samples.

Results

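Chemokines, cytokines, their receptors and 3 genes of the inflammasome and the acute-phase response were examined as a group in the epididymal fat pad, a white adipose depot of male mice that borders the epididymis. The group was a list of 39 gene symbols, and a gene was followed when the Cy5 signal of its probe stood well above background on 6 or more of the 24 arrays. All 39 had a probe and 32 passed, out of 22322 features (13442 named genes and 8880 probes with no gene name) that passed the same filter. The tissue came from 24 adult male C57BL/6JRcc mice, housed one per cage. The No NR group (12 mice) received 0 mg nicotinamide riboside per kg diet for 18 weeks (NR, from which cells make NAD, one of the forms of vitamin B3), and the Ctrl NR group (12 mice) ate the same diet with 30 mg NR per kg for the same time. Both groups had eaten the Ctrl NR diet for the first 2 weeks, from 8 or 9 weeks of age, and were 28 or 29 weeks old at the end. The diet gave 40% of its energy as fat and held 0.115% tryptophan, the amino acid from which the body can also make NAD, which was described as low but sufficient. All mice were fasted and then refed for 4 hours before the tissue was taken.

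Chemokines are small secreted proteins that draw leukocytes along a concentration gradient. They act through receptors coupled to G proteins, and most CC and CXC chemokines bind more than one of them. Cytokines such as TNF and the interleukins act through other receptor families and set how immune and tissue cells respond, while the soluble antagonist IL-1RN blocks the IL-1 receptor without signalling through it. In white fat, monocytes enter the tissue mainly through CCL2 and its receptor CCR2, and macrophages that gather around large or dying fat cells are a main source of CC chemokines and TNF.

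The promoters of 5 genes are shown. Ccl9, Ccl6, Ccl3 and Tnf followed macrophage markers closely, as described below, and Cxcl12 was the 1 gene called as falling with them, by its brighter probe alone. Other members followed these markers as closely, such as Tnfrsf1b (r = 0.932, against 0.912 for Ccl3 and 0.903 for Tnf). The 5 genes were picked after their values were seen. Each sequence is 300 bases of RefSeq (GRCm38.p6), 250 before to 50 after the annotated start, in the direction of the gene. They lie at chr11:83578587-83578886 (minus strand), chr11:83593038-83593337 (minus strand), chr11:83649329-83649628 (minus strand), chr17:35201958-35202257 (minus strand) and chr6:117168285-117168584 (plus strand). Capitals mark matches, on either strand, to an NF-kB motif (given by name only), the PU-box GAGGAA, the AP-1 motif TGANTCA or the TATA motif TATAAA, and adjoining or overlapping matches run together.
Ccl9: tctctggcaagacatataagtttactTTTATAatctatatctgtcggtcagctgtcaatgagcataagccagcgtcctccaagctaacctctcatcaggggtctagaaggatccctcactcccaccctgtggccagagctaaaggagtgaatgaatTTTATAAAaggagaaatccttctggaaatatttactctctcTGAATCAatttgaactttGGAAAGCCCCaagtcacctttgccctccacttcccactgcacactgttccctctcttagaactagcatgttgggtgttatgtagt
Ccl6: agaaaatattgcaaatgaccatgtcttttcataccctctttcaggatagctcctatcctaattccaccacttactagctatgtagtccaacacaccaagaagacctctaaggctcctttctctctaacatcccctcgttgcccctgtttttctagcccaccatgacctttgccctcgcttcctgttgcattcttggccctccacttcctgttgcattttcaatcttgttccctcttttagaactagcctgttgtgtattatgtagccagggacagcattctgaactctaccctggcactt
Ccl3: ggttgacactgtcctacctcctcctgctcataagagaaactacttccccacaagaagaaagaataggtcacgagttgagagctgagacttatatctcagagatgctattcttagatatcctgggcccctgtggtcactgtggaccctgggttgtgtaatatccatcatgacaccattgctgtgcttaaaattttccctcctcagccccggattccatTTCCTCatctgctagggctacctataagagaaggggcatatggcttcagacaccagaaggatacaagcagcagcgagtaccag
Tnf: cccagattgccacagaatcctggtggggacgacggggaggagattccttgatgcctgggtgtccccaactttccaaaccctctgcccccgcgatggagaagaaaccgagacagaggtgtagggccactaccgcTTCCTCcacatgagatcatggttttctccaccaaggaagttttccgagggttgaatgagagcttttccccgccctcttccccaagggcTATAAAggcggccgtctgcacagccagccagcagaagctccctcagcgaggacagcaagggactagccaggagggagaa
Cxcl12: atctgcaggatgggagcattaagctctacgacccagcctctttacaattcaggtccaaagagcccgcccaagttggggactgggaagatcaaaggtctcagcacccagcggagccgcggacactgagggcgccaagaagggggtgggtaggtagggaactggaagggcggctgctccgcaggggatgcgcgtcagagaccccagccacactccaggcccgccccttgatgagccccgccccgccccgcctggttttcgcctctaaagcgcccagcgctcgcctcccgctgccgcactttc
In these windows Ccl9 held 1 NF-kB, 1 AP-1 and 3 TATA matches, of which 2 overlap. Ccl3 held 1 PU-box match, Tnf held 1 PU-box and 1 TATA match, and Ccl6 and Cxcl12 held none. Of the 32 measured members, 25 had a promoter in the table. Among those 25, the NF-kB motif was found in 6, the PU-box in 7, AP-1 in 4 and TATA in 10. Over all 27025 genes of the table, 9.55% had a window with the NF-kB motif, 31.3% with the PU-box, 8.97% with AP-1 and 15.7% with TATA. These are matches of letters in a short window. They show no binding, and close followers of the macrophage markers were found both with and without them.

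RNA of each mouse was labelled with Cy5 and hybridised against 1 common Cy3 pool, which also held RNA of other diets and of 4 females, so each value below is a log2 ratio of 1 mouse to that pool. A ratio compares mice for 1 probe and says nothing about how much of 1 gene's RNA there was relative to another's. The share of spots well above background was 34.5% to 50.7% per array. The 24 arrays lay on 5 slides, each with both diets and 1 scan time. Adipocyte markers were measured for 15 of 15 listed genes, and the adipocyte mean used below rests on the 7 with no missing value. 3 sperm genes (Tnp1, Prm1 and Prm2) were also measured; their mean log2 ratio ran from -2.57 to 1.14 in No NR mice and from -2.15 to 3.05 in Ctrl NR mice, and it was over 1 in No NR mouse 110 and Ctrl NR mice 77 and 108. Leaving these 3 mice out, a setting added after the data were seen, gave 21 of 32 members with a higher mean in No NR and 23 that rose with the macrophage markers, against 22 and 23 with all mice.

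7 members fell below the filter. Ccl22, Ccr1, Il6 and Il10 were well above background on 0 of the 24 arrays, Nlrp3 on 1, Il1b on 2 and Cxcl2 on 3. Il1b and Il6 encode the classic inflammatory interleukins, Il10 an anti-inflammatory one, and Nlrp3 a sensor of the inflammasome that matures IL-1β and IL-18, and no level is given here for them. The members that passed with the fewest arrays were Il1rn with 10, Tnf with 18 and Ccl4 with 20. For Il1rn only 5 of 12 No NR arrays and 5 of 12 Ctrl NR arrays were well above background, so its values rest on dim spots.

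The diets were compared first. No member passed the test between diets, and no feature of the whole array did (0 of 22322, 0%, limma with Benjamini-Hochberg adjustment at 0.05; the lowest adjusted p over all features was 0.0573). 1 of the 32 members, Ccr2, had an unadjusted p under 0.05, against 3057 features, or 13.7%, over the whole array. Its mean was higher in No NR, as it was for 6.7% of features at that p. Over the other settings tried, 0 to 5 members were below that line, as were 323 to 4558 of all features. 22 members had a higher mean in No NR mice and 10 a lower one, where 47.6% of all features had a higher mean in No NR. The median log2 fold change of the members, No NR minus Ctrl NR, was 0.10, and that of all features was -0.006. With the macrophage mean as a further term 13 of the 32 had a higher mean in No NR and the members' median was -0.04. For each of the 32 members the ranges of the diets overlapped.

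**Figure D1:**
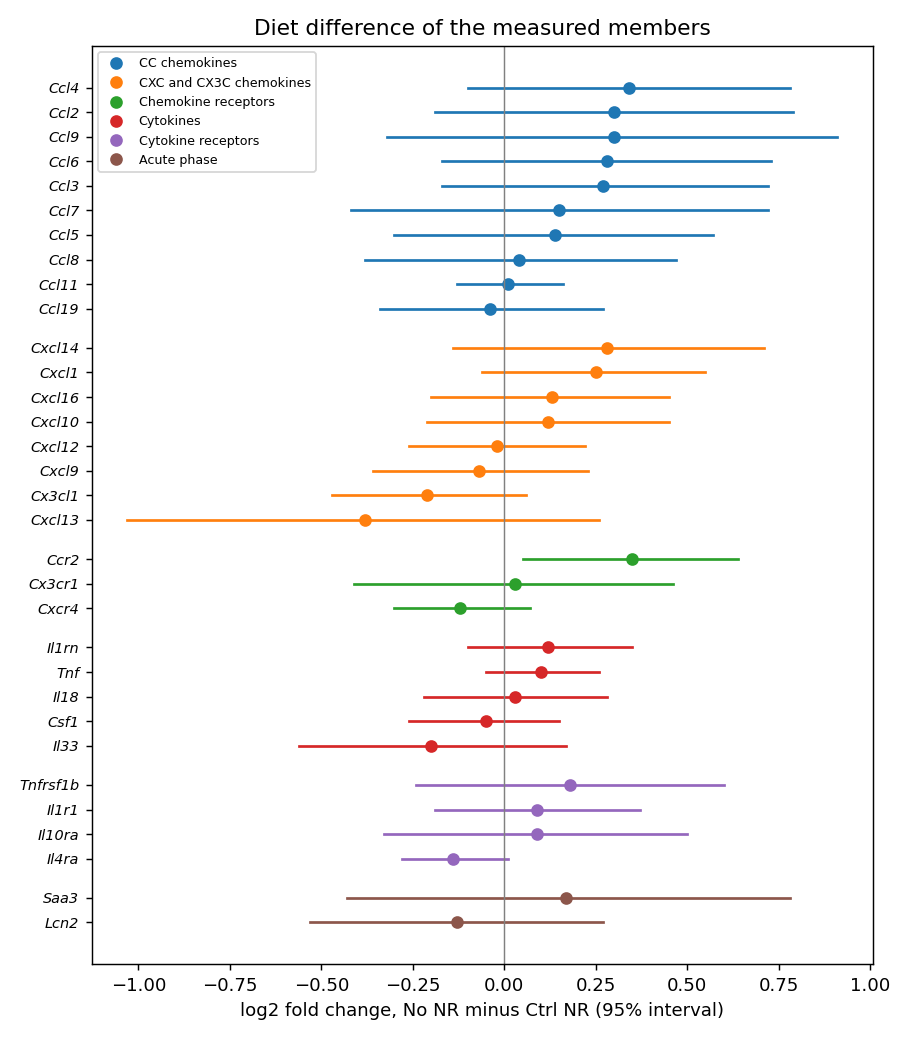
Log2 fold change (No NR minus Ctrl NR, points) of the 32 measured members with its 95% interval (lines), grouped by role, 12 mice per diet. Ccr2 is the only gene whose interval, 0.05 to 0.64, does not reach 0, and its adjusted p is 0.284.

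The members varied more between mice than most genes did. The SD over the 24 mice had a median of 0.44 among the members and of 0.20 among all features, and the 90th percentile of all features was 0.35. The widest were Cxcl13 (SD 0.85), Ccl9 (0.80), Saa3 (0.78), Ccl7 (0.73) and Ccl2 (0.65), and the narrowest was Ccl11 (0.17). Macrophage markers varied between mice as well. Over 26 of 28 listed macrophage markers, none of them a member (Cd68 and Clec7a were not measured), the mean log2 ratio was -0.09 ± 0.47 in No NR mice and -0.32 ± 0.56 in Ctrl NR mice (SD, n = 12 each). It ran from -0.76 to 0.51 in No NR mice and from -1.09 to 0.50 in Ctrl NR mice, so the diets overlapped over most of the range.

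Each feature was then fitted on this macrophage mean with diet as a second term. 23 of the 32 members rose with the macrophage markers and 1, Cxcl12, fell with them. Over the whole array 15.5% of features rose and 9.61% fell, 25.1% in all. The median slope of the members was 0.53 log2 units per log2 unit of the macrophage mean, and that of all features was 0.01. Under another scaling, median centring in place of loess, all features had a median slope of 0.38 and the members one of 0.65, so the members then stood above a general rise. With diet means removed, the macrophage mean had r = 0.983 with lipid-associated macrophage markers but -0.29 with resident macrophage markers. Of 10 resident markers 2 rose with it and 4 fell. Of its own 26 markers 20 had a called positive slope and 6 had none, Cd163 (r = -0.414) among them. The macrophage mean also followed the stromal progenitor markers (r = 0.924). It ran against the adipocyte markers (r = -0.924) and the endothelial markers (r = -0.759), over 24 mice. The part of these cell types in the members' slopes was not tested. In bulk tissue a larger number of cells of a type and more RNA per cell cannot be told apart.

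**Figure D2:**
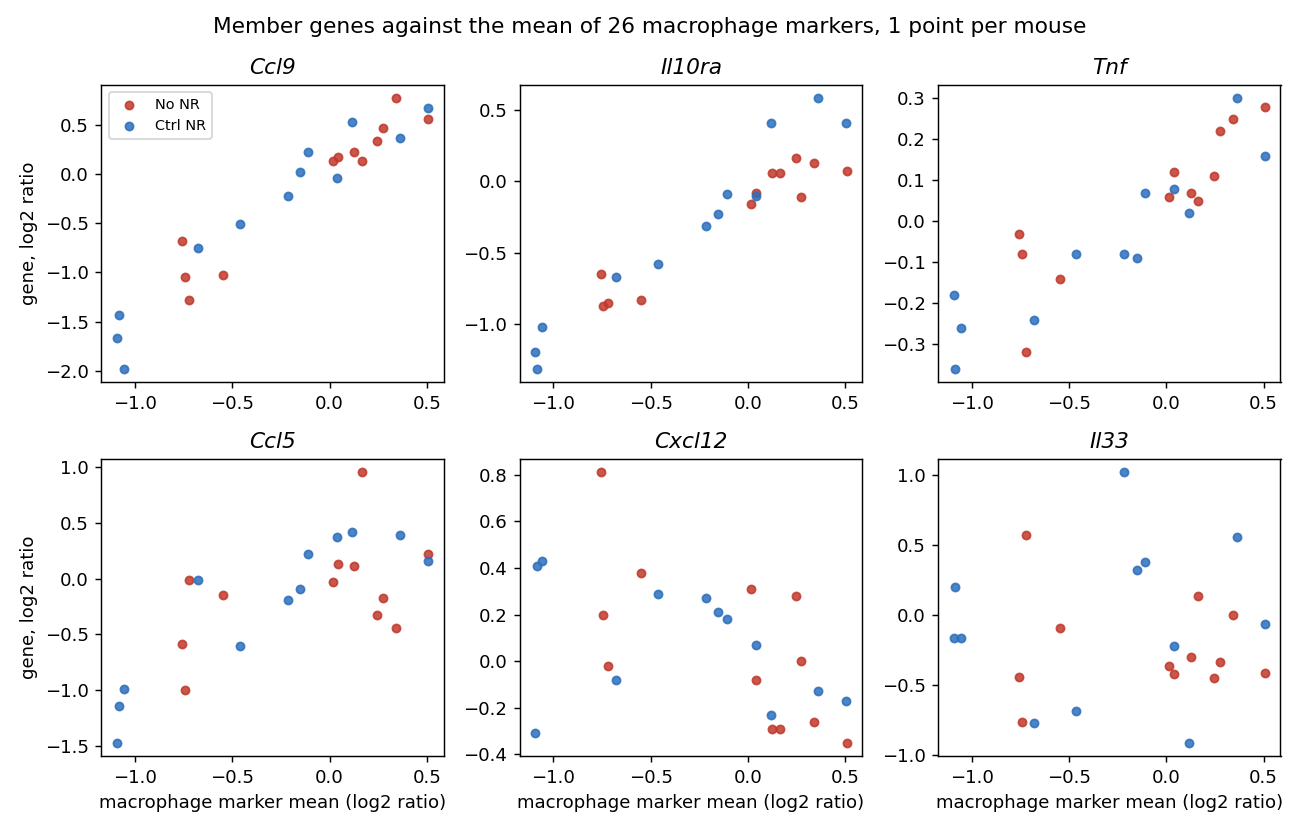
Log2 ratio of 6 member genes (y axis) against the mean log2 ratio of 26 macrophage markers (x axis), 1 point per mouse, No NR in red and Ctrl NR in blue. Ccl9, Il10ra and Tnf rise along the axis with r of 0.963, 0.951 and 0.903 over all 24 mice, Ccl5 rises less tightly (0.733), Cxcl12 falls (-0.510) and Il33 shows no trend (0.0233).

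Of the 10 measured CC chemokines 8 rose with the macrophage markers, and their median slope of 0.98 was the highest of the role groups, a difference that was not tested. Ccl9, a chemokine of rodents made by myeloid cells, had the largest slope of all members as processed here, 1.50 ± 0.0884 (SE). Over the other settings its slope was 0.82 to 1.55, while Ccl3 reached 1.95, Ccl4 1.93 and Il1rn 1.65. The ranking of members by slope thus depends on the processing. In No NR mice Ccl9 ran from -1.28 through a median of 0.15 to 0.77, and in Ctrl NR mice from -1.98 through -0.13 to 0.67. Its lowest values lay in Ctrl NR mice 95, 115 and 75 and in No NR mouse 98, which all had low macrophage means. Ccl6, the gene next to Ccl9 and also a rodent chemokine of myeloid cells, had a slope of 1.09 ± 0.0703. It ran from -0.69 through 0.15 to 0.81 in No NR mice and from -1.44 through -0.04 to 0.62 in Ctrl NR mice. The other called slopes were Ccl2 1.09, Ccl3 1.01, Ccl7 0.99, Ccl4 0.98, Ccl5 0.81 and Ccl8 0.59. Without the 2 mice farthest from the median macrophage mean (Ctrl NR 115 and 75) the adjusted p of Ccl8 was 0.177.

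Between diets, 9 of the 10 CC chemokines had a higher mean in No NR and none passed. With the macrophage mean as a further term their differences lay between -0.10 and 0.11. Ccl4, which attracts monocytes and T cells, had the lowest p of them. Its log2 ratio ran from -0.78 through -0.04 to 0.64 in No NR mice and from -1.60 through -0.53 to 0.75 in Ctrl NR mice. The fold change was 0.34 on the log2 scale (95% interval -0.10 to 0.78, adjusted p = 0.496), the highest value of all belonged to a Ctrl NR mouse (117), and on 5 slides its sign was positive on 3. Ccl3, another monocyte attractant, ran from -0.88 through 0.18 to 0.68 in No NR mice and from -1.13 through -0.47 to 0.78 in Ctrl NR mice. Its fold change was 0.27 (interval -0.17 to 0.72).

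Ccl2, Ccl7 and Ccl8, which are set beside Ccr2 further below, varied widely within each diet. Ccl2 ran from -0.84 through 0.20 to 1.01 in No NR mice and from -1.21 through -0.26 to 0.79 in Ctrl NR mice. Ccl7 ran from -1.30 through -0.08 to 1.12 in No NR mice and from -1.40 through -0.05 to 1.26 in Ctrl NR mice. Ccl8 ran from -1.05 through -0.37 to 0.54 in No NR mice and from -1.45 through -0.14 to 0.70 in Ctrl NR mice. The spans covered 4.67-fold for Ccl2, 6.34-fold for Ccl7 and 4.42-fold for Ccl8, while their log2 fold changes between diets were 0.30, 0.15 and 0.04. Ccl5, which attracts T cells and is made by them, ran from -1.00 through -0.09 to 0.95 in No NR mice and from -1.47 through -0.05 to 0.42 in Ctrl NR mice, with a fold change of 0.14. Ccl11 (eotaxin, an attractant of eosinophils) and Ccl19 (a ligand of CCR7) were the 2 CC chemokines with no called slope, at 0.04 and 0.28. Under median centring both were called, at 0.61 and 0.49, and Ccl19 also on Agilent's processed signals (0.53, adjusted p = 0.0490). The 3 Ccl19 probes had diet differences of -0.04, 0.08 and 0.10, none called.

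**Figure D3:**
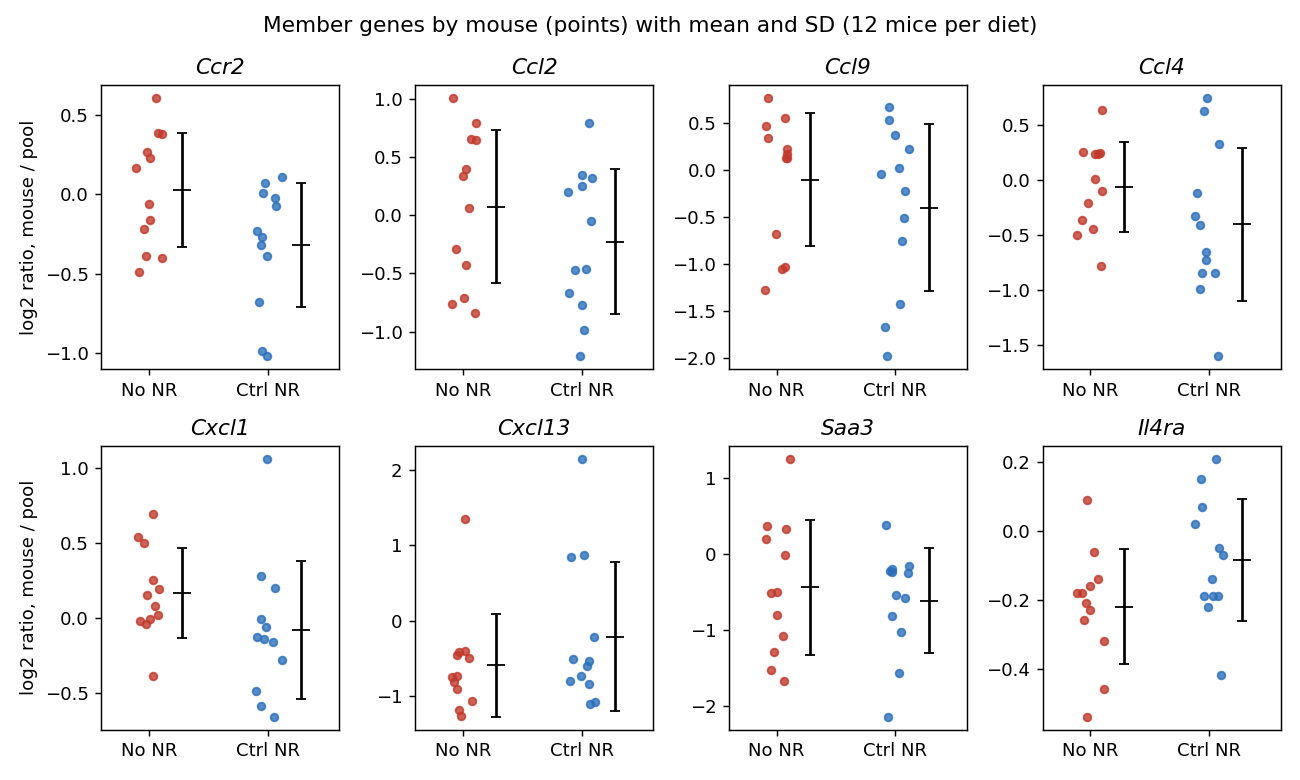
Log2 ratio of 8 member genes to the reference pool (y axis, its scale differs between panels), No NR mice in red at left and Ctrl NR mice in blue at right, 1 point per mouse, with mean and SD beside them (n = 12 each). The diets overlap in each panel, and single mice stand apart, such as Ctrl NR mouse 97 at 2.15 and No NR mouse 61 at 1.35 for Cxcl13.

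Among the CXC chemokines and Cx3cl1, 4 of the 8 measured genes had a higher mean in No NR and 4 a lower one, none called. Cxcl1, an attractant of neutrophils, had the lowest p. It ran from -0.39 through 0.12 to 0.69 in No NR mice and from -0.66 through -0.13 to 1.06 in Ctrl NR mice. The fold change was 0.25 (interval -0.06 to 0.55, adjusted p = 0.467), and the highest value again lay in Ctrl NR mouse 117. Cx3cl1, which is held on the surface of cells or shed and binds CX3CR1, ran from -0.65 through -0.45 to 0.13 in No NR mice and from -0.70 through -0.16 to 0.82 in Ctrl NR mice, a fold change of -0.21 (interval -0.47 to 0.06). The other members of this class were Cxcl14 at 0.28, Cxcl16 at 0.13, Cxcl10 at 0.12, Cxcl12 at -0.02 and Cxcl9 at -0.07.

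Cxcl13, the attractant of B cells, was the most variable member. It ran from -1.27 through -0.74 to 1.35 in No NR mice and from -1.10 through -0.56 to 2.15 in Ctrl NR mice. 4 mice stood above the rest, Ctrl NR 97, 84 and 117 and No NR 61. The fold change of Cxcl13 was -0.38 (interval -1.03 to 0.26, adjusted p = 0.612), and by slide it was between -1.43 and 0.74. Its slope on the macrophage mean was 0.46 and was not called (adjusted p = 0.293).

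5 of the 8 CXC and CX3C genes rose with the macrophage markers: Cxcl14 (slope 0.90), Cxcl16 (0.72; a scavenger receptor and the ligand of CXCR6), Cxcl1 (0.53), Cxcl10 (0.38) and Cx3cl1 (0.36). Cx3cl1 was not called without the 2 mice farthest from the median macrophage mean (adjusted p = 0.0715) or in the fit without diet (adjusted p = 0.0642). Cxcl10, a chemokine induced by interferon, passed narrowly (adjusted p = 0.0478) and passed in 16 of 41 other settings. Without Ctrl NR mouse 117 its slope was 0.25 (adjusted p = 0.158). Cxcl9, another interferon-induced ligand of CXCR3, had a slope of -0.29 that was not called (adjusted p = 0.109). It passed at -0.33 without No NR mouse 114 and at -0.36 in the authors' value table. Under median centring it passed in the other direction, at 0.36. Among the marker lists, Cxcl14 and Cxcl16 had their r farthest from 0 with the adipocyte one, -0.863 and -0.916. Their r with the macrophage list was close to that in size, 0.837 and 0.889. Other members ran against the adipocyte list more closely still, such as Ccl9 (-0.923) and Il10ra (-0.917).

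Cxcl12, which holds stem cells and leukocytes in their niches through CXCR4, was the exception. It ran from -0.35 through -0.01 to 0.81 in No NR mice and from -0.31 through 0.13 to 0.43 in Ctrl NR mice, and its slope was -0.31 ± 0.103 (adjusted p = 0.0279). Its highest value was in No NR mouse 118, a mouse with a low macrophage mean. A second Cxcl12 probe, assigned to another transcript accession, was measured on all arrays and rose with the macrophage markers (slope 0.58, unadjusted p = 2.00e-06). The probes had r = -0.461 with each other, so the direction for Cxcl12 depends on the probe. The brighter probe had r = 0.669 with the endothelial markers and -0.367 with the stromal progenitor markers. The part of these cell types in its values was not tested. Its slope was positive, 0.49, under median centring. The call was lost when No NR mouse 118 or 90 or Ctrl NR mouse 75, 88 or 95 was left out, with adjusted p of 0.0854, 0.0581, 0.0602, 0.0514 and 0.0594 in that order. It was also lost with slide as a fixed block (adjusted p = 0.0517), with no filter on dim probes (adjusted p = 0.0511) and with the mean of its probes (slope 0.13, adjusted p = 0.200).

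The chemokine receptors were measured for 3 of 4 genes, and all 3 rose with the macrophage markers. Ccr2, the receptor that marks inflammatory monocytes and lets them leave the marrow and enter tissue, had the largest positive log2 fold change of the members. Its log2 ratio ran from -0.49 through 0.05 to 0.61 in No NR mice and from -1.02 through -0.25 to 0.11 in Ctrl NR mice. The means were 0.03 ± 0.36 in No NR and -0.32 ± 0.39 in Ctrl NR (SD, n = 12 each), a difference of 0.35 ± 0.144 (SE) or 1.27-fold, with an unadjusted p of 0.0234 and an adjusted p of 0.284. The upper 6 values belonged to No NR mice and the lowest 3 to Ctrl NR mice 115, 75 and 95. These 3 mice also had the lowest macrophage means. With the macrophage mean as a further term the difference was 0.21 (unadjusted p = 0.0297, adjusted p = 0.297). Within slides it was 0.30, 0.49, -0.03, 0.07 and 0.59, and with slide as a fixed block 0.28 (unadjusted p = 0.0704). Without the 3 mice with sperm genes it was 0.33 (unadjusted p = 0.0541).

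Cx3cr1, the fractalkine receptor of patrolling monocytes and resident macrophages, ran from -1.35 through 0.12 to 0.87 in No NR mice and from -0.89 through 0.07 to 0.77 in Ctrl NR mice, and its slope was 0.83. Its second probe had a slope of 0.25 and r = 0.590 with the first. Cxcr4, the CXCL12 receptor of most leukocytes, ran from -0.56 through -0.02 to 0.33 in No NR mice and from -0.26 through -0.01 to 0.42 in Ctrl NR mice, with a slope of 0.27 that was not called in the authors' value table (0.20, adjusted p = 0.134). The diet differences of these receptors were 0.03 and -0.12, and both intervals spanned 0.

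Of the cytokines, 5 of 8 were measured. Tnf, the cytokine that lowers insulin responses of fat cells, ran from -0.32 through 0.06 to 0.28 in No NR mice and from -0.36 through -0.08 to 0.30 in Ctrl NR mice. Its span was narrow and its signal dim, and it rose with the macrophage markers at a slope of 0.32 and r = 0.903. In the authors' value table its slope was 0.19 and was not called (adjusted p = 0.117). Over all other settings the Tnf slope was between 0.17 and 1.12, so its size depends on the processing. Il1rn, the IL-1 antagonist, ran from -0.48 through -0.01 to 0.52 in No NR mice and from -0.55 through -0.07 to 0.36 in Ctrl NR mice, and its slope was 0.37. That slope was between 0.15 and 1.65 over the other settings. The diet differences were 0.10 for Tnf (interval -0.05 to 0.26) and 0.12 for Il1rn (interval -0.10 to 0.35).

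Il33, Il18 and Csf1 did not have a called slope. Il33, an alarmin that stromal and mesothelial cells of fat store in their nuclei, ran from -0.76 through -0.34 to 0.57 in No NR mice and from -0.91 through -0.11 to 1.02 in Ctrl NR mice. Its slope was 0.07, and among the marker lists it ran most closely with the mesothelial one (r = 0.641). Il18, a cytokine released by inflammasomes, also had its highest r, 0.603, with the mesothelial markers. The Il18 slope was 0.25 (adjusted p = 0.104). It passed at 0.31 without No NR mouse 98 and at 0.29 with slide as a fixed block. The mesothelial mean ran from -0.73 to 0.40 in No NR mice and from -0.90 to 0.76 in Ctrl NR mice, and all 11 of its markers had a lower mean in No NR, none called. Csf1, the growth factor of macrophages, had a slope of -0.01 and a diet difference of -0.05. Under median centring Il33, Il18 and Csf1 had called positive slopes of 0.51, 0.45 and 0.58.

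Cytokine receptors were measured for 4 of 4 genes. Il10ra, the ligand-binding chain of the IL-10 receptor, ran from -0.87 through -0.09 to 0.16 in No NR mice and from -1.31 through -0.27 to 0.58 in Ctrl NR mice, and its slope was 1.00 ± 0.0657. Tnfrsf1b, the TNF receptor of immune cells, ran from -1.00 through -0.11 to 0.50 in No NR mice and from -1.29 through -0.32 to 0.54 in Ctrl NR mice, with a slope of 0.99. Il1r1, the signalling IL-1 receptor, ran from -0.38 through 0.00 to 0.46 in No NR mice and from -0.53 through -0.11 to 0.74 in Ctrl NR mice, with a slope of 0.52. The 3 thus rose with the macrophage markers, and their diet differences were 0.09 for Il10ra, 0.18 for Tnfrsf1b and 0.09 for Il1r1, none called. Il4ra, which binds IL-4 and IL-13, ran from -0.54 through -0.20 to 0.09 in No NR mice and from -0.42 through -0.10 to 0.21 in Ctrl NR mice. It had the lowest p of the 4 (difference -0.14, interval -0.28 to 0.01, adjusted p = 0.407) and a negative sign on all 5 slides. Its second probe differed by 0.02 and had r = -0.288 with the first.

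The slope on the macrophage mean was also compared between diets, a test added after the data were seen. It differed for 0 of the 22296 features tested (9.92% had an unadjusted p under 0.05). Among members the lowest p was that of Il10ra, with a slope difference of -0.26 (No NR minus Ctrl NR, unadjusted p = 0.0469, adjusted p = 0.501).

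Saa3 and Lcn2 represent the acute-phase group. Saa3, an inflammation-induced apolipoprotein of fat and macrophages in the mouse, ran from -1.67 through -0.51 to 1.25 in No NR mice and from -2.14 through -0.39 to 0.38 in Ctrl NR mice. It rose with the macrophage markers at 1.14 ± 0.201. Lcn2, a protein that binds bacterial iron carriers and is abundant in neutrophils and fat cells, ran from -0.95 through -0.40 to 0.23 in No NR mice and from -0.83 through -0.44 to 1.33 in Ctrl NR mice, with a slope of 0.53. The Lcn2 call was lost with slide as a fixed block (0.46, adjusted p = 0.0551), without the 2 mice farthest from the median macrophage mean (adjusted p = 0.0525) and on the Cy5 channel alone (adjusted p = 0.0997). The highest Lcn2 value was in Ctrl NR mouse 108, which also had the highest sperm gene mean (3.05). Lcn2 ran most closely with the neutrophil list (r = 0.664), and Saa3 had r = 0.759 with that list, 0.753 with the lipid-associated macrophage list and 0.736 with the macrophage list. In the neutrophil list only 4 of 13 markers were measured (S100a8, S100a9, Elane and Csf3r), and the defining markers Ly6g, Camp, Ngp, Ltf and Mpo were not. With the macrophage mean S100a8 had r = 0.698 and Elane 0.523, but S100a9 had -0.104 and Csf3r -0.184. Between the diets Csf3r differed by 0.26 and S100a9 by -0.21 (unadjusted p = 0.0315 and 0.0453), and neither was called. The neutrophil mean ran from -0.35 to 0.34 in No NR mice and from -0.57 to 0.15 in Ctrl NR mice. The part of neutrophils in these values was not tested.

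**Figure D4:**
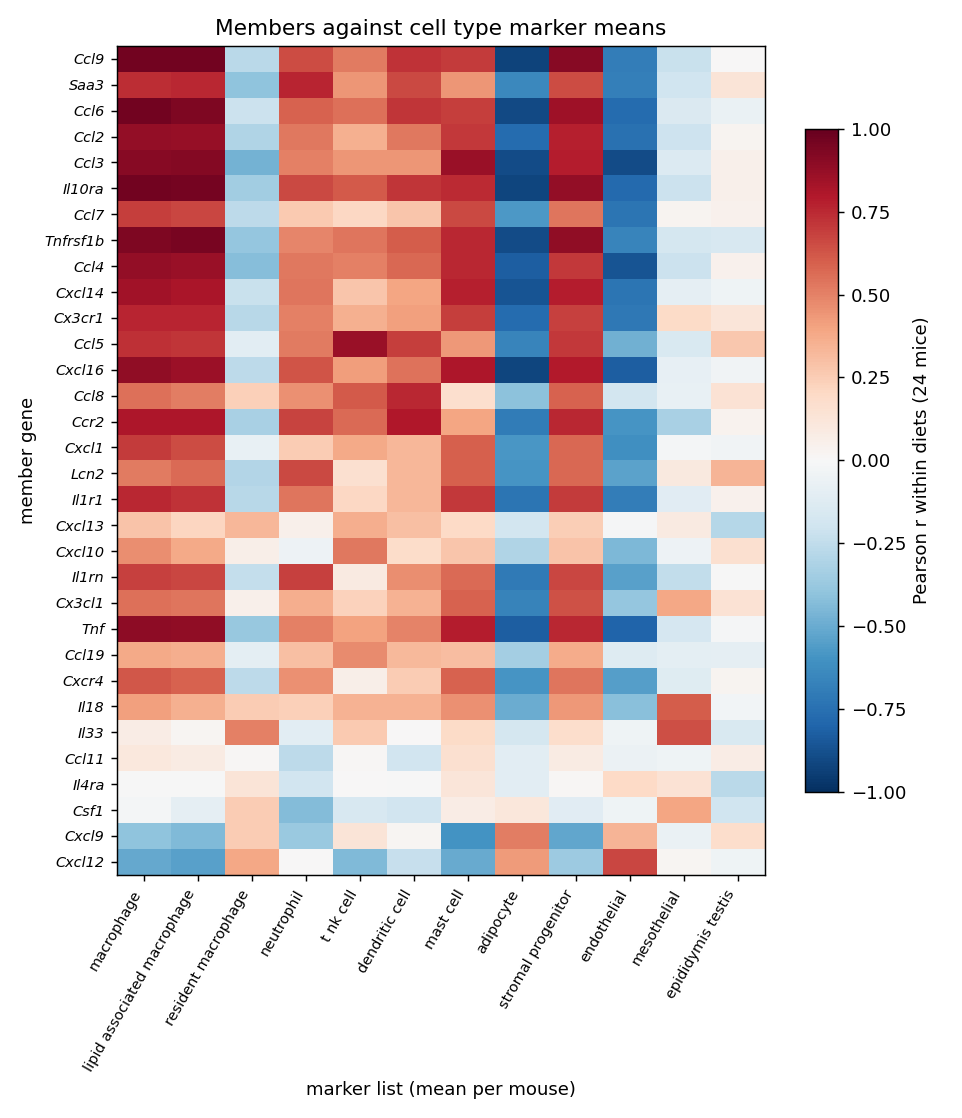
Pearson r over 24 mice, diet means removed, between each member (rows, by slope on the macrophage mean) and the means of 12 marker lists (columns), from -1 in blue to 1 in red. The upper rows are red for macrophage and stromal lists and blue for the adipocyte list, while Ccl5 is highest with T and NK cell markers (0.864), Cxcl12 with endothelial markers (0.669) and Il33 with mesothelial markers (0.641).

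Some members ran more closely with another marker list than with macrophages. Ccl5 had r = 0.864 with T and NK cell markers (14 of 16 measured) and 0.730 with macrophage markers. That T and NK cell mean ran from -0.17 to 0.26 in No NR mice and from -0.26 to 0.29 in Ctrl NR mice. Ccl8 had r = 0.755 with dendritic cell markers (6 in the mean) and 0.554 with macrophage markers. The dendritic cell mean itself had r = 0.693 with the macrophage mean, but its list did not move as one. Of 7 measured dendritic cell markers 3 rose with the macrophage mean, such as Batf3 (r = 0.901). Cd209a fell (r = -0.637) and 3 had no called slope. The part of dendritic cells in the Ccl8 values was not tested. All lists share the same 24 arrays, and these r are descriptions over 24 mice.

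The members also ran together. Over 496 pairs of members, with diet means removed, the median r was 0.370 and 39.3% of pairs had r over 0.5. Among 2414503 pairs drawn from every 10th feature of the array the median r was 0.00986 and 4.87% had r over 0.5. The closest pairs were Ccl6 with Ccl9 (0.958), Ccl9 with Il10ra (0.944), Ccl6 with Il10ra (0.941), Ccl3 with Tnf (0.936) and Ccl3 with Ccl4 (0.931), and Ccl2 with Ccl7 had 0.909. The most opposite was Cxcl9 with Cxcl14 (-0.579).

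**Figure D5:**
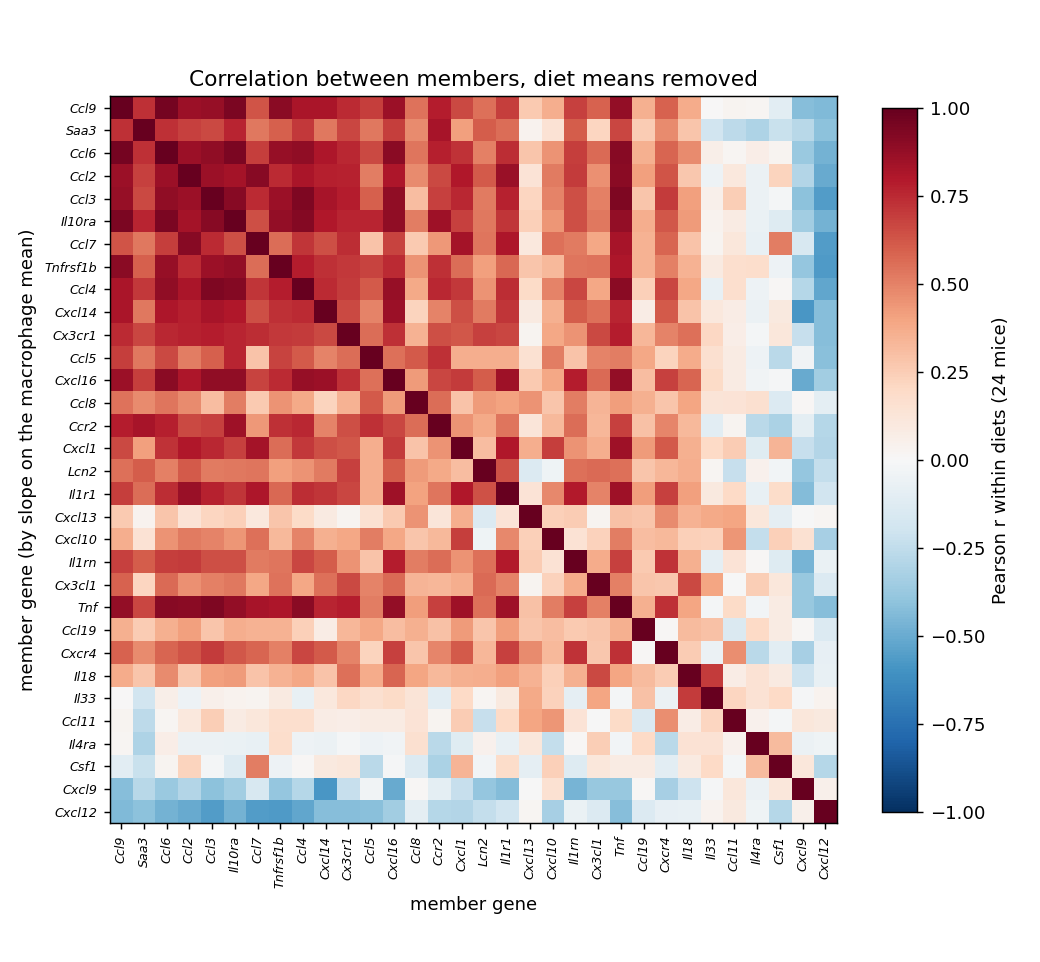
Pearson r over 24 mice, diet means removed, between all pairs of the 32 measured members, ordered on both axes by slope on the macrophage mean, from -1 in blue to 1 in red. A red block fills the upper left, where Ccl6 and Ccl9 have r = 0.958 and Ccl3 and Ccl4 0.931. Tnf, farther down with a slope of 0.32, has r = 0.936 with Ccl3. Cxcl9 and Cxcl12 at the end run against the block.

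Several members lie close together in the genome. Only measured members were ordered by position, so genes outside the list can lie between them. In RefSeq (GRCm38.p6) Ccl5, Ccl9, Ccl6, Ccl3 and Ccl4 form a run on chromosome 11. Their 10 pairs had a median r of 0.846 (0.599 to 0.958). Ccl2, Ccl7, Ccl11 and Ccl8 form a further run on chromosome 11. Its 6 pairs had a median r of 0.199 (0.108 to 0.909), with Ccl2 and Ccl7 at the top. Cxcl9 and Cxcl10, neighbours on chromosome 5, had r = 0.152.

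Some members had been listed as pairs of ligand and receptor. With diet means removed, the r was 0.662 for Ccl2 and Ccr2, 0.430 for Ccl7 and Ccr2, and 0.559 for Ccl8 and Ccr2. Cx3cl1 and Cx3cr1 had 0.664, Tnf and Tnfrsf1b 0.809, Il1rn and Il1r1 0.791, and Cxcl12 and Cxcr4 -0.0830. With the macrophage mean also held constant, Ccl2 with Ccr2 had -0.170 and Tnf with Tnfrsf1b -0.172, whereas Il1rn with Il1r1 had 0.574 and Cx3cl1 with Cx3cr1 0.453. Ccl7 with Ccr2 then had -0.296, Ccl8 with Ccr2 0.228 and Cxcl12 with Cxcr4 0.351. With diet means alone removed, 99.6% of all features had a lower r with Il1r1 than Il1rn did, while 84.4% had a lower r with Ccr2 than Ccl7 did and 41.2% a lower r with Cxcr4 than Cxcl12 did. The pairs with Ccr1, Il1b or Il10 were not measured.

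The rest of the pathway was followed in 7 further lists, and no gene of them was called between diets. Of 18 other chemokines 9 were measured, 4 with a higher and 5 with a lower mean in No NR. The lowest p were Ccl24 (-0.20) and Ppbp (-0.10). With the macrophage markers 3 of the 9 rose, Pf4, Xcl1 and Mif. Ccl12 (slope -0.57, adjusted p = 0.044) and Ccl24 (slope -0.38, adjusted p = 0.0111) fell with them. Of 19 other chemokine receptors 12 were measured, 5 higher and 7 lower. Cxcr5, the CXCL13 receptor of B cells, averaged -0.19 ± 0.15 in No NR and 0.14 ± 0.44 in Ctrl NR (SD, n = 12 each), a difference of -0.33 (adjusted p = 0.244), and Cxcr6 differed by 0.20. Of 32 other cytokines 15 were measured, 6 higher and 9 lower, led by Tslp (0.31, adjusted p = 0.134), a cytokine of epithelial and stromal cells, and Il17d (-0.23). Of 31 other cytokine receptors 28 were measured, 17 higher and 11 lower, led by Ltbr (-0.16) and Il17rc (-0.29).

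All 10 inflammasome genes were measured, 8 with a higher and 2 with a lower mean in No NR. The lowest p belonged to Nlrp1b, a sensor (0.29, adjusted p = 0.215), and Gsdmd, which forms the pore through which IL-1β leaves (0.28). The mean of the list followed the macrophage mean (r = 0.976 over 24 mice), which was 0.23 higher in No NR, and 7 of its 10 genes rose with it; the part of macrophages in these counts was not tested. Of 26 genes of NF-kB signalling and its feedback 23 were measured, 14 higher and 9 lower, and the mean of this list had r = 0.946 with the macrophage mean. Irak3, an inhibitor of Toll-like and IL-1 receptor signalling, averaged 0.06 ± 0.20 in No NR and -0.27 ± 0.25 in Ctrl NR (SD, n = 12 each), a difference of 0.33 (adjusted p = 0.105), and Socs1, a feedback inhibitor of cytokine receptors, differed by -0.20. Of 12 acute-phase genes 9 were measured, 6 higher and 3 lower, led by the related plasma proteins Orm1 (0.56, adjusted p = 0.205) and Orm2 (0.44). The third of that family, Orm3, differed by -0.47 (adjusted p = 0.405) and was added after its value was seen. The mean of the acute-phase list had r = 0.028 with the macrophage mean, and 3 of its genes rose with it and 2 fell. That r was -0.116 for the other chemokines, 0.671 for the other chemokine receptors, 0.497 for the other cytokines and 0.947 for the other cytokine receptors.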

How the data were processed

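The deposited scanner files hold spot intensity per array, which the submitters' processing notes credit to Agilent Feature Extraction 10.7.3.1; the units are linear per the file headers. They give median spot signals, which were used in place of mean signals. In R 4.3.3, limma 3.58.1 corrected background (normexp, offset 50) and scaled ratios by loess. Control spots had no weight in loess and, like outlier spots, were then removed. The authors' deposited value table holds log2 values that followed log2 Cy5 (r at least 0.99). It was tried as an alternative; the sources used here do not state how it was filtered or normalized. Of 55681 probes, 27235 matched 1 symbol by accession in a RefSeq table (GRCm38.p6); the arrays were designed on mm9. The brightest kept probe represented a gene. Diets were compared with limma, diet as the only term, with Benjamini-Hochberg adjustment over all features. The slope on the mean of markers measured on all arrays was fitted with diet as a term. List means used only markers with no missing value. Each mouse is 1 replicate. 1 marker list is not reported here. The members and lists were chosen with earlier results of these data known. Values per mouse are given for members with an unadjusted p under 0.05, the lowest p or largest SD of each role, and ligands and receptors of the pairs; the 2 lowest p were named per other list. The fits were tested on simulated data.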

Additional observations from a re-analysis of the deposited data

How the results depend on the processing

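No paired analysis was possible because the diets share no animal numbers. No member was called between diets in any of the 39 other settings, and the number at an unadjusted p under 0.05 was 0 to 5. Over all features the number at that p was 323 to 4558. Ccr2 kept its sign in all 39 and an unadjusted p under 0.05 in 35. Members with a higher mean in No NR numbered 13 to 24, the 13 with the macrophage mean as a term. Over all features the count called between diets was 0, but 3 when a probe had to be above background on all 24 arrays, 191 with array weights and 73 with the macrophage mean as a term. It was between 0 and 215 with 1 mouse left out, and leaving out Ctrl NR mouse 68 gave 215 calls, mouse 117 gave 203, mouse 104 gave 76, mouse 75 gave 32 and mouse 77 gave 9, while omitting No NR mouse 78 gave 3 and mouse 118 gave 2. Median centring gave 323 features at an unadjusted p under 0.05 in place of 3057.

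The macrophage slope was called for 5601 features, and for 17858 under median centring, where the median slope of all features was 0.38 in place of 0.01. Members that rose numbered 17 to 31 over 41 settings (22 to 23 with 1 mouse left out). The 17 came with the filter of all 24 arrays, under which only 24 members were measured. The 31 came with median centring, under which most of the 22296 features tested had a called slope in either direction. Under median centring the slopes of Cxcl9 (0.36), Cxcl12 (0.49), Csf1 (0.58) and Il4ra (0.26) turned positive, and that of Cxcl12 was 0.13 with the mean of its probes. The cause was not tested. Cxcl12 was called as falling in 32 of 41 settings and as rising in 1, and Lcn2 as rising in 38. Leaving out the 2 mice farthest from the median macrophage mean left 19 rising members, without Ccl8, Cxcl10, Cx3cl1 and Lcn2. Signal over background limits Il1rn and Tnf.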
